A study of Mus musculus with 6 samples.

Results

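The numbered Zfp genes, the mouse genes whose symbol is Zfp followed by a number, were described in the prefrontal cortex (PFC) of stressed and control mice. A gene was taken as a member where its symbol was Zfp, a number and at most 1 letter, and where the FPKM values of its mRNA transcripts, summed by symbol, reached 1 FPKM in at least 3 of the 6 mice. FPKM (fragments per kilobase of transcript, scaled to the mapped fragments) is a level corrected for transcript length and library size. The rule took 280 of the 313 numbered Zfp symbols in the mRNA table, which held 12559 gene symbols, and 11211 of all symbols reached the same level. The other 33 numbered symbols stayed below it. Just inside the rule were Zfp959, Zfp568 and Zfp707, whose third-highest values were 1.002, 1.010 and 1.010 FPKM. Just outside were Zfp57, Zfp764 and Zfp691, at 0.995, 0.981 and 0.967 FPKM.

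The mice were male C57BL/6 animals aged 6 to 8 weeks, and no transgene, deletion or drug was part of the design. In the repeated social defeat (RSD) group, 6 nights brought a 2 h visit of an aggressive CD-1 intruder to the home cage, which is a model of chronic social stress. The controls stayed undisturbed in a separate cage and room, 3 to a cage, so that cage and room cannot be told apart from RSD. All mice went through an elevated plus maze, a test of anxiety-like behaviour, and were killed directly after it. The PFC of 3 RSD mice with anxiety-like behaviour and of 3 control mice was sequenced as strand-specific libraries of RNA depleted of ribosomal RNA.

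Most of these genes encode proteins with C2H2 zinc fingers, small folds that hold a zinc ion and read bases of DNA, although the name also covers RNA-binding proteins and enzymes. Many of them carry a KRAB domain, which recruits the corepressor Trim28 and, through it, the histone methyltransferase Setdb1 and heterochromatin proteins. KRAB zinc finger proteins are best known for silencing retrotransposons, and their genes arose by repeated duplication and lie in tandem clusters.

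Depth could be judged only relative to control 1, and stood between 0.856 and 0.969 of it in the other 5 libraries. Control 1 also stood apart in the members' levels, correlating with the other controls at 0.611 and 0.670 and with RSD 1 at 0.749, while RSD 1 and RSD 2 correlated at 0.872. RSD 3 correlated at 0.740 and 0.713 with RSD 1 and RSD 2, and at 0.773 and 0.762 with controls 2 and 3, so that it too stood apart from its group. Some genes that neurons need were listed at 0 in single libraries, such as Slc17a7, the vesicular glutamate transporter of excitatory cortical neurons. Its values were 311, 0 and 0.0055 FPKM in the controls and 327, 331 and 311 FPKM in RSD. A value of 0 is therefore given here as listed. Among the members, between 0 and 4 were listed at 0 in each library, and 10 were listed at 0 in at least 1.

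The members made up between 0.843% and 0.999% of the summed mRNA FPKM of each mouse, and the control range held all 3 RSD values. The mean level over the 6 mice ran from 0.648 FPKM for Zfp959 to 136 FPKM for Zfp365, with a median of 3.28 FPKM against 5.40 FPKM over all 12277 genes tested. In all, 22 members lay above 10 FPKM and 72 lay below 2 FPKM, and 220 reached 1 FPKM in every mouse. Zfp148 and Zfp575 met the rule only through the RSD mice, so their difference between groups is partly fixed by that rule.

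The most abundant members had similar levels in both groups. Zfp365, a coiled-coil protein that helps to protect telomeres and replication forks, was at 138, 143 and 142 FPKM in the controls and 133, 129 and 129 FPKM in RSD. These groups did not overlap, but the difference of -0.11 on the log2 scale (SE 0.09) gave an unadjusted limma p of 0.268. Zfp106, an RNA-binding protein needed for motor neuron upkeep, was at 44.9, 13.8 and 43.3 FPKM in the controls and 44.8, 30.8 and 42.8 FPKM in RSD, and control 2 lay far below the other mice. Zfp91, a ubiquitin ligase of the NF-kB pathway, ran from 21.9 to 25.6 FPKM in the controls and from 24.5 to 27.6 FPKM in RSD. Zfp280d ran from 19.1 to 30.7 and from 22.1 to 24.1 FPKM, and Zfp207 (BuGZ), a spindle and splicing protein, from 15.7 to 24.95 and from 24.4 to 25.7 FPKM. The control and RSD values of these last 4 genes overlapped.

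**Figure D1:**
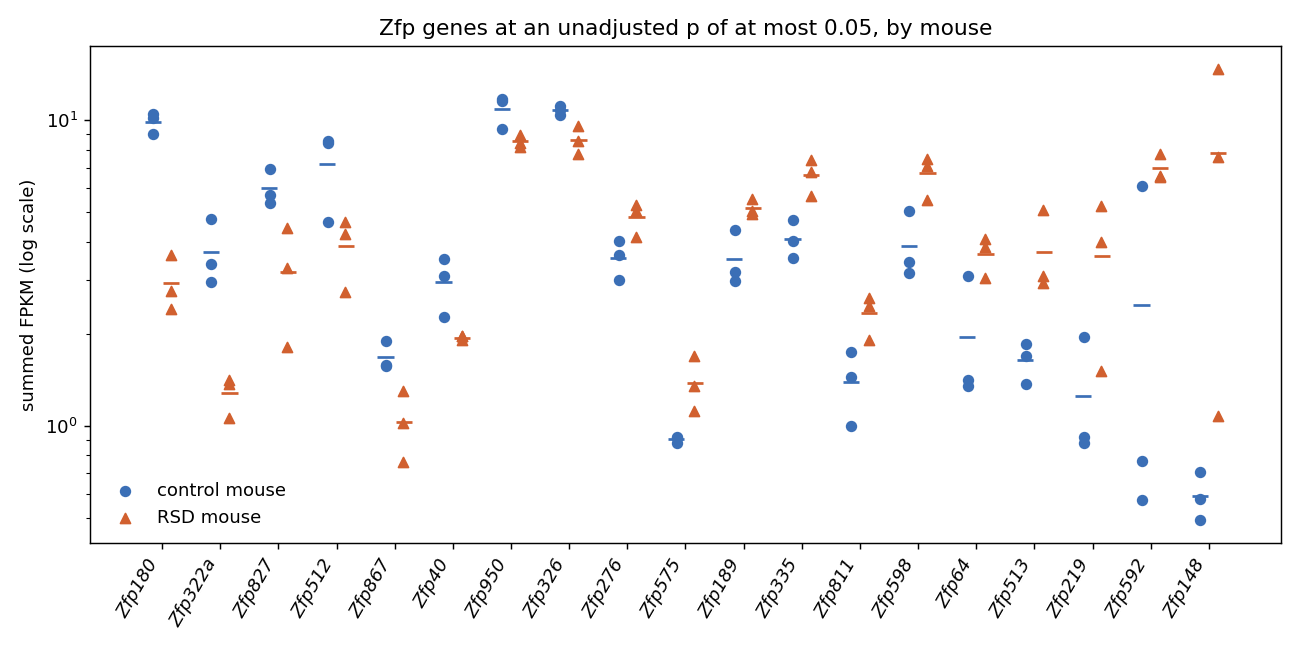
Summed FPKM (log axis) of the 19 members with an unadjusted limma p of at most 0.05, in each control and RSD mouse. Each point is 1 mouse, and lines mark the group means. Zfp180 separates the groups, with the controls between 9.05 and 10.5 FPKM and RSD between 2.41 and 3.62 FPKM.

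The comparison of RSD with control mice asked which of these genes differed after social stress. At the gene level, 0 of the 280 members passed an adjusted p of 0.05 in limma, against 0.0733% of all genes tested, and 19 members (6.79%) had an unadjusted p of at most 0.05, against 8.94%. Of these, 11 were higher in RSD (3.93%, against 6.21% of all genes) and 8 were lower (2.86%, against 2.74%). The 11 include Zfp148 and Zfp575, which met the level rule only through the RSD mice. At the study threshold, a change of at least 1 on the log2 scale with an unadjusted p of at most 0.05, 4 members were higher in RSD (1.43%, against 1.85% of all genes) and 2 were lower (0.714%, against 0.57%). The higher members were Zfp513, Zfp148, Zfp592 and Zfp219, and the lower members were Zfp180 and Zfp322a. These small counts turned on single libraries. Without control 1 or without RSD 3, 10 members were higher, without control 2 or control 3 it was 2, and without RSD 1 or RSD 2 it was 1. The count of lower members was 4 without RSD 1.

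The members as a whole were centred on 0. Their median difference was 0.00 on the log2 scale (0.03 over all genes), with quartiles of -0.16 and 0.17 (-0.16 and 0.30 over all genes). A positive difference was found in 139 members (49.6%, against 54.5% of all genes). This split followed the scaling: it was 36.4% after median scaling and 31.4% after quantile normalization, which moved the median of all genes from 0.03 to -0.04 and to -0.06. In 224 members (80.0%) the difference was under 0.5 on the log2 scale in either direction, against 76.8% of all genes. The RSD and control values did not overlap in 14 members higher in RSD (5%, against 9.39% of all genes) and in 19 members lower in RSD (6.79%, against 6.66%). Among the 14 were Zfp148 and Zfp575, which met the level rule only through the RSD mice. The level of a bulk tissue falls alike when fewer cells of a type are present and when each holds less RNA, and these cannot be told apart here.

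**Figure D2:**
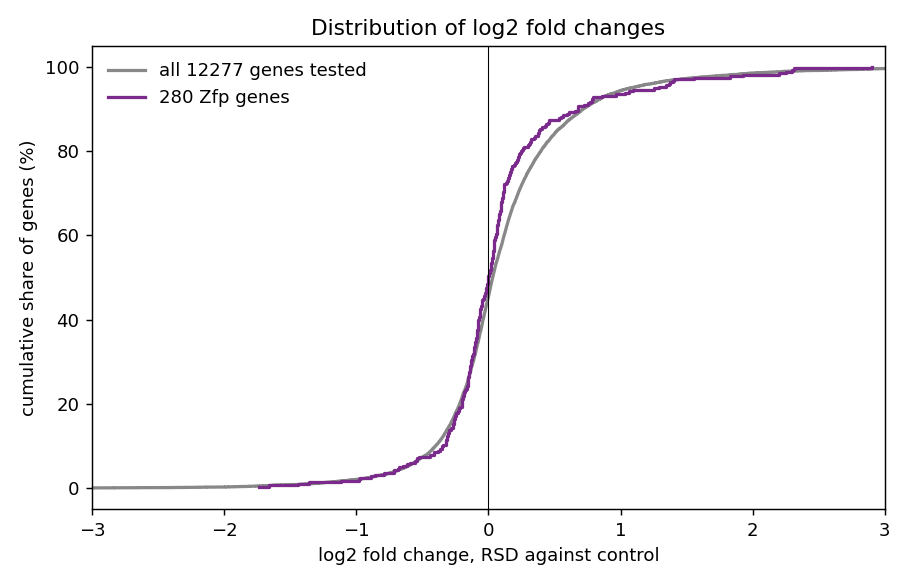
Cumulative share of genes (y axis) by log2 fold change, RSD over control (x axis, drawn from -3 to 3), for the 280 Zfp members and for all 12277 genes tested. The member curve is close to the all-gene curve in its lower part and lies to its left above 0, with upper quartiles of 0.17 and 0.30.

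Zfp180, a KRAB zinc finger gene of chromosome 7 (GRCm38 chr7:24081924-24107713, plus strand), had the smallest p of all members. Its level was 10.2, 10.5 and 9.05 FPKM in the controls and 2.41, 3.62 and 2.76 FPKM in RSD, so that every control lay above every RSD mouse. The difference was -1.74 on the log2 scale (SE 0.18, n = 3 and 3, limma adjusted p = 0.0737). It stayed between -1.90 and -1.61 when each mouse was left out in turn, with adjusted p-values from 0.066 to 0.289.

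The table held 3 mRNA transcripts of Zfp180, and the difference lay in 1 of them. ENSMUST00000068975 fell from 9.38, 8.76 and 7.59 FPKM in the controls to 1.32, 1.16 and 1.19 FPKM in RSD, a change of -2.71 on the log2 scale (SE 0.17, limma adjusted p = 0.00921). This call was lost without control 2 (adjusted p = 0.0509), RSD 1 (0.0752), RSD 2 (0.0764) or RSD 3 (0.0608) in limma, while the change itself stayed between -2.763 and -2.675 in these 4 fits. ENSMUST00000206482 was at 0.625, 1.47 and 1.07 FPKM in the controls and 0.668, 1.54 and 1.41 FPKM in RSD. ENSMUST00000206184 reached at most 0.928 FPKM and was not tested. In the controls ENSMUST00000068975 was by far the most abundant of the 3.

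The promoter of Zfp180 is shown because the gene has the smallest p and because its promoter carries the core letters bound by the activator Zfp143. The promoter spans the start site in RefSeq (GRCm38.p6, chr7:24081647-24081946, plus strand). The capitals mark the core, which reads on the strand opposite to the gene and begins 22 bases before the start site.
Zfp180 promoter: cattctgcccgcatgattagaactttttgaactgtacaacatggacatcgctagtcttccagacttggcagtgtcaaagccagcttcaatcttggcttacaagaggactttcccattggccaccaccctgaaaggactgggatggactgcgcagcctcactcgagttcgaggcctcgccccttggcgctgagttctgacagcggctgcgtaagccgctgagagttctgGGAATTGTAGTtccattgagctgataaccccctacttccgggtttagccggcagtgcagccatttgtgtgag

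A RefSeq promoter of 300 bases was matched to 231 of the 280 members. The Zfp143 core, the run in capitals in the windows printed here, was searched on both strands without mismatch and was found in 8 of them (3.46%), against 0.322% of the promoters of all 27025 genes. The 8 windows are shown because they let the shared letters be read beside the response of each gene. Each has 31 bases, is written 5′ to 3′ on the strand named, and has the core in capitals.
Zfp1 (chr8:111643408-111643438, minus strand): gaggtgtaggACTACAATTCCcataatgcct
Zfp108 (chr7:24254717-24254747, minus strand): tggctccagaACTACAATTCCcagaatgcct
Zfp128 (chr7:12881153-12881183, minus strand): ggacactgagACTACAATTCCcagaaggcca
Zfp180 (chr7:24081865-24081895, minus strand): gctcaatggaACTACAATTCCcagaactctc
Zfp454 (chr11:50887656-50887686, plus strand): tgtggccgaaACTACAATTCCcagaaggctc
Zfp58 (chr13:67500532-67500562, plus strand): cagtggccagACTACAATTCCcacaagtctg
Zfp93 (chr7:24270337-24270367, minus strand): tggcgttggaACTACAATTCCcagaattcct
Zfp933 (chr4:147848430-147848460, minus strand): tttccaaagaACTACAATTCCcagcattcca

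In 7 of the 8 the core read on the strand opposite to the gene. The other 7 genes had differences between -0.19 (Zfp128) and 0.15 (Zfp454) on the log2 scale, each with an unadjusted limma p above 0.05. Of the 8 genes with the core, Zfp180 was thus the only 1 below that p. Zfp143 itself was at 2.52, 2.54 and 2.32 FPKM in the controls and 2.29, 2.65 and 3.06 FPKM in RSD, and these groups overlapped. A cAMP response element (TGACGTCA, both strands) was found in 10 member promoters (4.33%, against 2.03% of all genes). Member promoters had a median GC content of 55.3% and 16 CpG sites, against 52.8% and 7 over all genes. A match shows the letters and not binding.

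Zfp335 carries a cAMP response element, the motif of the activity-regulated factor CREB, and its promoter is shown because it was among the 5 members whose p stayed at or below 0.05 in each of the 6 fits that left out 1 mouse. The other members with the element had differences between -0.14 (Zfp426) and 1.26 (Zfp523) on the log2 scale. Each of them had an unadjusted limma p above 0.05. The capitals mark the element, which begins 66 bases before the start site (RefSeq GRCm38.p6, chr2:164911701-164912000, minus strand).
Zfp335 promoter: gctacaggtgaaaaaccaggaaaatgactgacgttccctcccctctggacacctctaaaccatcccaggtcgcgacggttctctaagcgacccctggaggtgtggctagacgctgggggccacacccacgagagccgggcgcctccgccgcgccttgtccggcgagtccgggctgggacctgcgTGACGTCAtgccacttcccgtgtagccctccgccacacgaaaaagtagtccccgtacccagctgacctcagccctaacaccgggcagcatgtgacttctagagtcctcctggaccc

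Zfp335, whose human counterpart acts with histone H3K4 methyltransferase complexes and is required in neural progenitors, was at 4.73, 3.55 and 4.02 FPKM in the controls and 7.45, 6.77 and 5.66 FPKM in RSD. Every RSD mouse lay above every control, and the difference was 0.68 on the log2 scale (SE 0.17, limma adjusted p = 0.523). Zfp598, a ubiquitin ligase that marks collided ribosomes, was at 5.06, 3.17 and 3.43 FPKM in the controls and 7.50, 7.10 and 5.51 FPKM in RSD. Its difference was 0.79 (SE 0.23, limma adjusted p = 0.532) with no overlap between the groups. Zfp513, whose human counterpart is linked to inherited retinal disease, was at 1.85, 1.37 and 1.69 FPKM in the controls and 5.07, 3.09 and 2.94 FPKM in RSD. Its difference of 1.10 (SE 0.26, limma adjusted p = 0.509) rested on a single transcript, ENSMUST00000031562.

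Zfp322a, a gene known from mouse embryonic stem cells as a factor of self-renewal, was at 3.40, 2.95 and 4.76 FPKM in the controls and 1.42, 1.06 and 1.37 FPKM in RSD. All controls lay above all RSD mice, with a difference of -1.44 (SE 0.24, limma adjusted p = 0.285). With the lncRNA transcripts of the same locus added, the sums were 9.19, 8.32 and 9.58 FPKM in the controls and 4.49, 4.70 and 6.64 FPKM in RSD, a smaller difference of -0.78. Zfp180, Zfp322a, Zfp513, Zfp335 and Zfp598 were the 5 members with an unadjusted p of at most 0.05 in each of the 6 fits that left out 1 mouse.

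Zfp148 (ZBP-89), a GC-box binding factor, had the highest fold change of all members but an uneven one. It met the level rule only through the RSD mice, so its direction is partly fixed by that rule. Zfp148 was at 0.490, 0.575 and 0.709 FPKM in the controls and 7.59, 14.8 and 1.08 FPKM in RSD, so that RSD 3 lay just above the controls. The difference was 2.90 (SE 0.92, limma adjusted p = 0.535), and 1.34 when lncRNA transcripts of the locus were added, where RSD 3 lay inside the control range.

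Zfp592, a nuclear zinc finger protein, was at 0.769, 6.12 and 0.571 FPKM in the controls and 6.60, 7.76 and 6.53 FPKM in RSD. Control 2 was close to the RSD mice. With all mice the difference was 2.20 (SE 0.85, limma adjusted p = 0.553), and without control 2 it was 3.21 with an adjusted p of 0.0266 in limma. That was the only 1 of the 6 fits leaving out 1 mouse with an unadjusted limma p of at most 0.05. Over these fits the difference ran from 1.60 to 3.21, with limma adjusted p-values up to 0.885. Zfp219 was at 1.96, 0.879 and 0.919 FPKM in the controls and 5.26, 4.01 and 1.52 FPKM in RSD. Its groups overlapped, and the difference was 1.37 (SE 0.54, limma adjusted p = 0.553).

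Zfp827, whose human counterpart recruits the NuRD chromatin remodelling complex, was at 5.68, 6.94 and 5.37 FPKM in the controls and 3.30, 1.81 and 4.46 FPKM in RSD, a difference of -0.97 (SE 0.34, limma adjusted p = 0.546). Zfp867 was at 1.57, 1.90 and 1.58 FPKM in the controls and 1.02, 0.761 and 1.30 FPKM in RSD, a difference of -0.68. Zfp40 was at 2.27, 3.52 and 3.09 FPKM in the controls and 1.91, 1.97 and 1.96 FPKM in RSD, a difference of -0.56. In these 3 genes every RSD mouse lay below every control, but none passed the adjusted test. The remaining members with an unadjusted p of at most 0.05 were Zfp64, Zfp189, Zfp276, Zfp575 and Zfp811, which were higher in RSD by 0.44 to 0.96, and Zfp326, Zfp512 and Zfp950, which were lower with differences from -0.86 to -0.32.

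Among the members with a described role, Zfp189 is of interest because work in mice tied it to resilience to social defeat in the PFC. It was at 4.38, 2.98 and 3.18 FPKM in the controls and 5.06, 4.94 and 5.52 FPKM in RSD. Every RSD mouse lay above every control, but the difference of 0.56 (SE 0.18) gave a limma adjusted p of 0.535. The known-role list had 24 tested genes, among them Zfp57, which lay below the level rule and is not a member. Of these 24, 0 passed the adjusted test, 4 had an unadjusted p of at most 0.05 and were higher (Zfp335, Zfp598, Zfp148 and Zfp189), and 1 was lower (Zfp326). These are 16.7% and 4.17% of the list, against 6.21% and 2.74% of all genes. Zfp148 met the level rule only through the RSD mice, and the list was chosen with earlier results of these data known. The median difference of the 24 genes was 0.08, against 0.03 over all genes. Zfp326, a member of the DBIRD complex that links transcription to splicing, was at 10.8, 10.4 and 11.1 FPKM in the controls and 8.59, 7.79 and 9.59 FPKM in RSD, a difference of -0.32.

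Zfp462, a chromatin regulator needed for neural development, ran from 8.18 to 9.57 FPKM in the controls and from 8.36 to 10.5 FPKM in RSD. Zfp609, which acts with the cohesin loader Nipbl in cortical progenitors, ran from 6.41 to 8.40 and from 6.68 to 7.98 FPKM. Zfp804a, whose human counterpart is a risk gene for schizophrenia, ran from 2.77 to 3.59 and from 3.04 to 3.60 FPKM. Control and RSD ranges overlapped in all 3 genes. They also overlapped in Zfp521 (1.59 to 2.03 and 1.46 to 1.84 FPKM), a neural differentiation factor, and in Zfp711 (3.44 to 5.49 and 3.15 to 4.25 FPKM), an X-linked intellectual disability gene in humans.

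Zfp536, a repressor of neuronal differentiation, ran from 1.90 to 4.08 FPKM in the controls and from 1.69 to 3.61 FPKM in RSD. The RNA-binding Zfp346 ran from 2.81 to 9.66 and from 4.499 to 7.002 FPKM. Both overlapped between the groups. Zfp638, an RNA-binding factor of adipocyte differentiation that also silences unintegrated retroviral DNA in human cells, was at 23.7, 24.1 and 25.7 FPKM in the controls and 23.6, 18.7 and 18.96 FPKM in RSD. It did not overlap, with a difference of -0.27 (SE 0.13) and a limma adjusted p of 0.585.

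Zfp281 and Zfp423 showed how a single listed 0 can shape a fold change. Zfp281, a stem cell factor, was listed at 0 in control 1 and stood at 10.5 and 10.96 FPKM in the other controls and at 11.05, 11.005 and 11.1 FPKM in RSD. Its fitted difference of 2.30 had an SE of 1.86. Zfp423, a cerebellar and adipocyte factor, was at 3.01, 0 and 2.10 FPKM in the controls and 2.96, 0.313 and 2.68 FPKM in RSD. The difference of 0.78 had an SE of 1.53, and neither gene had an unadjusted p of 0.05 or less.

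Members known to silence retroelements were few in the list. Zfp809, which silences murine leukaemia virus and related endogenous retroviruses, was at 5.33, 4.90 and 4.73 FPKM in the controls and 3.92, 4.01 and 4.70 FPKM in RSD. Zfp932, a silencer of endogenous retroviral elements in mouse embryonic stem cells, was at 2.94, 2.66 and 2.25 FPKM in the controls and 1.90, 1.98 and 1.06 FPKM in RSD. Every RSD value was below every control value in both genes, with differences of -0.24 (SE 0.13, limma adjusted p = 0.612) and -0.68 (SE 0.28, limma adjusted p = 0.557). Zfp568, which represses a placental Igf2 promoter, ran from 0.767 to 1.15 FPKM in the controls and from 0.865 to 1.45 FPKM in RSD.

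The members lay unevenly on the genome. With neighbours at most 1 Mb apart and at least 3 members, 24 clusters were found on 11 chromosomes, and they held 161 members (57.5%). Chromosome 7 alone held 69 members and 8 clusters, and the largest clusters had 16 members on chromosome 13, 15 on chromosome 17 and 14 on chromosome 7. Members in clusters had a lower median level, 2.96 FPKM, than the 119 members outside, 4.46 FPKM. Close copies such as Zfp729a and Zfp729b, Zfp874a and Zfp874b, Zfp955a and Zfp955b, and Zfp354a to Zfp354c may share reads, so their values are uncertain.

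Most clusters held members of both directions. Members on both sides of 0 were found in 21 of the 24 clusters (20 with sums over whole loci, a setting chosen after seeing the data), and 17 had a median within 0.2 of 0 on the log2 scale. In clusters the median was 0.00, with 5 members (3.11%) at an unadjusted p of at most 0.05. Outside clusters the median was 0.01, with 14 such members (11.8%), against 8.94% of all genes. The 5 include Zfp575 and the 14 include Zfp148, and both genes met the level rule only through the RSD mice. At the study threshold, 0 of the 161 members in clusters were higher and 1, Zfp180, was lower. Of the 119 outside, 4 were higher and 1, Zfp322a, was lower. Over all genes these shares were 1.85% higher and 0.57% lower. The 4 include Zfp148, which met the level rule only through the RSD mice. The difference between members in and outside clusters was not tested.

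The cluster with the highest median, 0.50, was chr7:4915217-5038446 with Zfp628, Zfp579, Zfp865 and Zfp784, all above 0. Zfp628 led it with 2.06, 0.501 and 0.683 FPKM in the controls and 3.59, 3.06 and 1.503 FPKM in RSD, and these values overlapped. The summed level of the cluster was 8.25, 2.74 and 3.37 FPKM in the controls and 11.9, 10.7 and 3.17 FPKM in RSD, with RSD 3 inside the control range. The cluster with the lowest median, -0.67, was chr8:71882019-71968278 with Zfp709, Zfp882, Zfp617 and Zfp961. Summed by symbol, its members ran from -1.66 in Zfp617 to 1.37 in Zfp882. These 2 genes share an assembled locus, and with all transcripts of that locus summed the difference was -0.20 (SE 0.36, limma adjusted p = 0.852), so that Zfp882 turned in sign, all 4 members were below 0 and the cluster median was -0.37. The smallest p of the cluster belonged to Zfp709 at 4.17, 4.64 and 2.85 FPKM in the controls and 2.20, 2.88 and 2.71 FPKM in RSD.

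The members of 2 clusters were all below 0. The cluster chr16:3744093-3884561, with Zfp263, Zfp174 and Zfp597, had a summed level of 12.1, 11.5 and 10.7 FPKM in the controls and 8.50, 9.97 and 9.29 FPKM in RSD, without overlap. Zfp597 was at 5.75, 4.89 and 4.54 FPKM in the controls and 3.36, 3.96 and 4.29 FPKM in RSD, a difference of -0.38 (limma adjusted p = 0.56). The cluster chr8:69226343-69791178, with 5 members, had a median of -0.05 and overlapping sums.

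The Zfp180 cluster chr7:24081924-25227507 held 12 members with 7 differences above 0 and 5 below. Its summed level was 41.2, 38.8 and 37.5 FPKM in the controls and 33.1, 31.9 and 32.5 FPKM in RSD. These sums include Zfp180, whose mean was 9.89 FPKM in the controls and 2.93 FPKM in RSD. Its neighbour Zfp575 was at 0.914, 0.879 and 0.920 FPKM in the controls and 1.69, 1.35 and 1.12 FPKM in RSD, the opposite direction. Zfp575 met the level rule only through the RSD mice.

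In the other clusters the member with the smallest p did not pass the adjusted test. Zfp157 on chromosome 5 and Zfp433 on chromosome 10 were lower in every RSD mouse, with differences of -0.31 each. Zfp811 on chromosome 17, at 0.995, 1.44 and 1.74 FPKM in the controls and 2.62, 2.47 and 1.91 FPKM in RSD, was higher in every RSD mouse, by 0.72. With the lncRNA transcripts of its locus added, its difference was -0.15. Zfp653 on chromosome 9 was at 2.75, 1.55 and 1.89 FPKM in the controls and 5.16, 4.16 and 2.38 FPKM in RSD, with overlap. The groups also overlapped for Zfp853, Zfp746, Zfp637, Zfp787, Zfp551, Zfp59, Zfp30, Zfp788, Zfp553, Zfp964, Zfp26, Zfp354c, Zfp729a and Zfp251, the smallest-p members of their clusters, whose differences ran from -0.52 to 0.77.

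**Figure D3:**
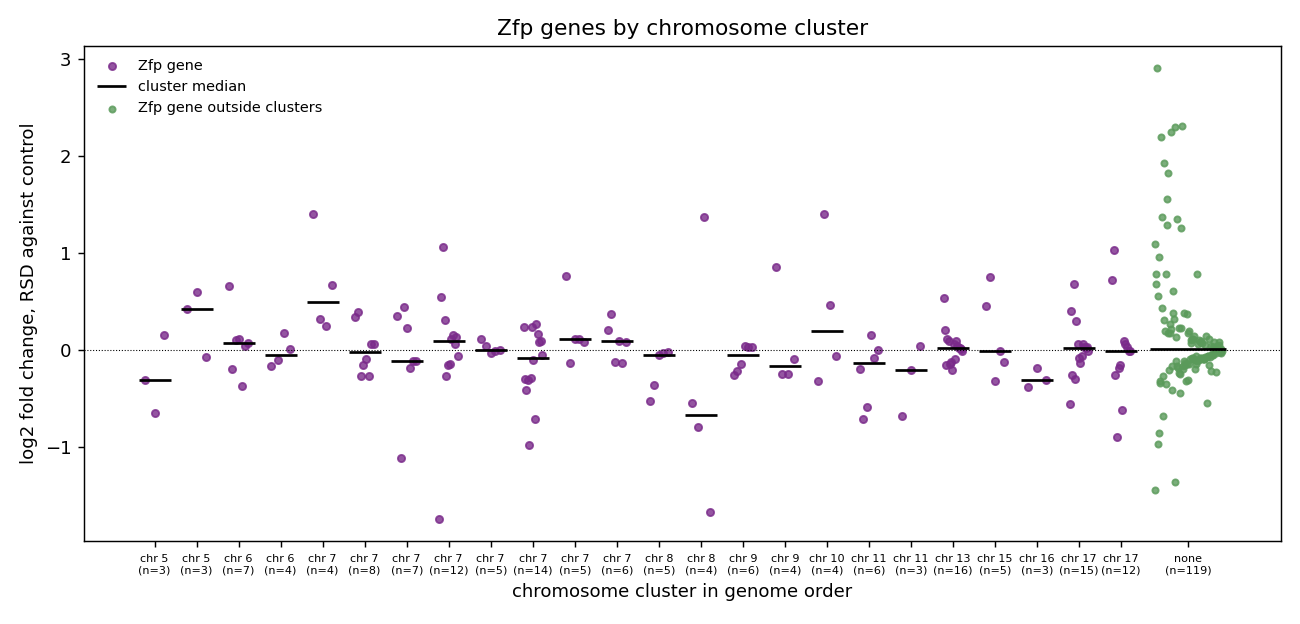
Log2 fold change, RSD over control (y axis), of each member in the 24 chromosome clusters and outside them (x axis, in genome order), 1 point a gene, with the median of each cluster. Cluster medians run from -0.67 to 0.50, and 21 of the 24 clusters (20 with sums over whole loci) have members on both sides of 0.

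The members had 615 mRNA transcripts, between 1 and 15 a gene, and 124 members had 1. Of the 550 transcripts tested, 1 passed an adjusted p of 0.05 in limma (against 0.163% of all mRNA transcripts tested), the Zfp180 transcript described above. At the study threshold, 10 transcripts were higher in RSD (1.82%, against 2.57%) and 6 were lower (1.09%, against 1.51%). An unadjusted p of at most 0.05 was found for 24 transcripts (4.36%, against 6.78%). The transcripts at the study threshold belonged to 14 genes, and the gene total met the threshold in the same direction for 5 of the transcripts.

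Some genes kept their total while transcripts differed in opposite directions. For Zfp672, ENSMUST00000065533 was at 0.708, 2.12 and 2.26 FPKM in the controls and at 0.0117, 0.0113 and 0.00547 FPKM in RSD. ENSMUST00000185661 of the same gene was at 1.36, 0 and 0.0103 FPKM in the controls and 2.13, 2.17 and 1.92 FPKM in RSD. The gene total differed by 0.04, and both transcripts missed the adjusted test (limma adjusted p = 0.179 and 0.71).

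For Zfp85, ENSMUST00000091520 was at 0.00624, 0.327 and 0.00728 FPKM in the controls and 0.895, 1.04 and 1.29 FPKM in RSD. ENSMUST00000144183 was at 2.17, 0.784 and 1.07 FPKM in the controls and 0.317, 0.338 and 0 FPKM in RSD. The gene total differed by -0.09. For Zfp275, ENSMUST00000114499 was listed at 0 in all 3 controls and at 1.96, 1.55 and 1.02 FPKM in RSD (limma adjusted p = 0.0831), while the gene total was at 4.67, 4.97 and 5.34 FPKM in the controls and 5.77, 5.83 and 5.32 FPKM in RSD. Transcripts of a gene share most of their sequence, so how fragments are divided among them is an estimate.

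Other transcripts at the study threshold had the same kind of spread. ENSMUST00000087971 of Zfp64, whose human counterpart activates the KMT2A gene, was at 1.05, 0.633 and 0.802 FPKM in the controls and 2.35, 2.60 and 1.87 FPKM in RSD. ENSMUST00000133868 of Zfp523 was at 0, 0.558 and 0 FPKM in the controls and 2.44, 1.60 and 0.768 FPKM in RSD. ENSMUST00000136889 of Zfp637 was at 1.05, 2.58 and 0.785 FPKM in the controls and 0, 0.381 and 0 FPKM in RSD. The groups did not overlap in these 3 transcripts, and their limma adjusted p-values were 0.354, 0.671 and 0.621. ENSMUST00000183801 of Zfp280d, 1 of its 15 transcripts, was at 1.03, 1.89 and 1.14 FPKM in the controls and 0, 0 and 0.792 FPKM in RSD, also without overlap.

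**Figure D4:**
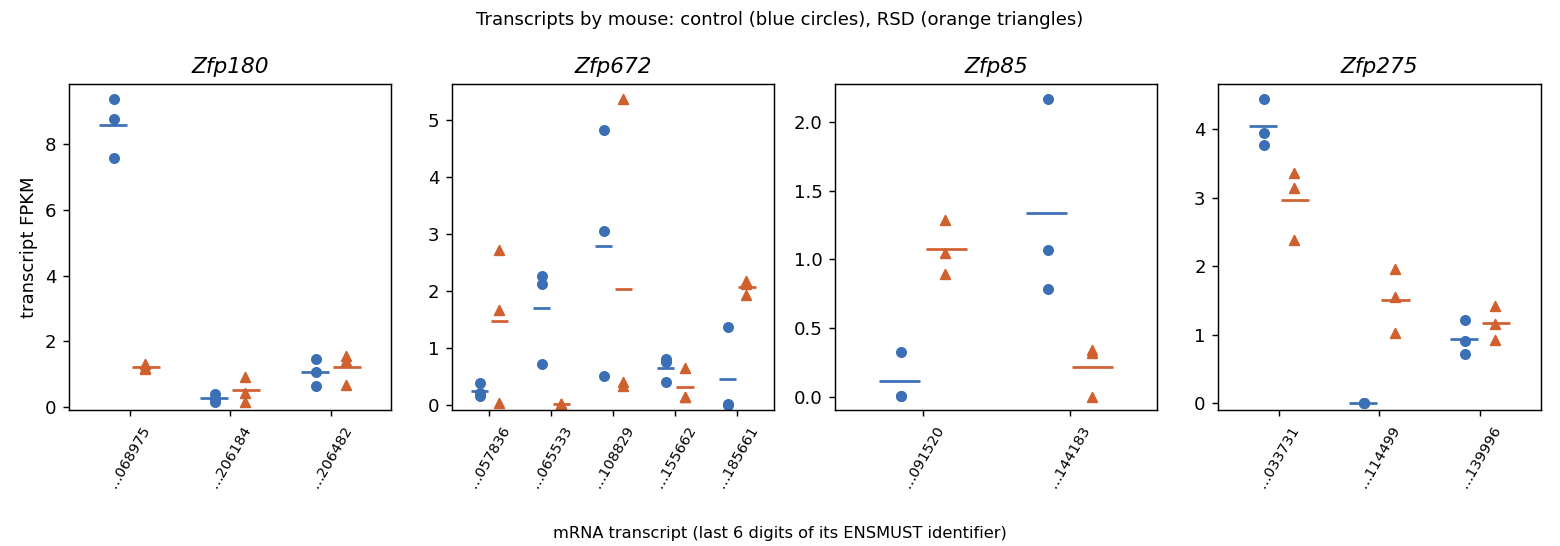
FPKM (y axis) of the mRNA transcripts of Zfp180, Zfp275, Zfp672 and Zfp85 in each mouse, 1 point a mouse. The Zfp180 transcript ENSMUST00000068975 lies between 7.59 and 9.38 FPKM in the controls and between 1.16 and 1.32 FPKM in RSD, while ENSMUST00000206482 overlaps between the groups.

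The loci of 82 members also held lncRNA transcripts, 137 in all. Of the 119 tested, 0 passed an adjusted p of 0.05 in limma (against 0.102% of all lncRNA transcripts tested) and 2 had an unadjusted p of at most 0.05 (5.28% of all). At the study threshold 0 were higher (1.07% of all) and 1 was lower (1.37%). The lower one, NONMMUT029155.2 in the locus of Zfp799, was chosen for description after its values were seen. It was at 5.95, 6.89 and 6.61 FPKM in the controls and 5.69, 0.0795 and 0.110 FPKM in RSD. The mRNA of Zfp799 was at 2.58, 2.80 and 2.37 FPKM in the controls and 2.48, 7.33 and 8.47 FPKM in RSD, so that the same 2 RSD mice were low in the lncRNA and high in the mRNA. Their sum over the locus was 8.53, 9.69 and 8.98 FPKM in the controls and 8.17, 7.41 and 8.58 FPKM in RSD, a difference of -0.17.

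The genes of the proteins through which KRAB zinc fingers act had differences of both signs. Of 25 corepressor and heterochromatin genes listed, 22 were tested, 0 passed the adjusted test in limma, and 1 was higher (4.55%, against 6.21% of all genes) and 3 were lower (13.6%, against 2.74%) at an unadjusted p of at most 0.05. Their median difference was -0.03, against 0.03 over all genes. Dnmt3a, a DNA methyltransferase, was at 4.59, 4.89 and 5.39 FPKM in the controls and 8.72, 9.57 and 6.98 FPKM in RSD, a difference of 0.75 (SE 0.16, limma adjusted p = 0.478). Atf7ip, a cofactor of Setdb1, was at 7.82, 4.75 and 7.18 FPKM in the controls and 4.41, 3.25 and 4.33 FPKM in RSD, a difference of -0.69 (SE 0.24, limma adjusted p = 0.546). Neither gene overlapped between the groups. The other lower genes were Morc3 (-0.28) and Cbx1 (-0.45). Trim28 and Setdb1, through which KRAB proteins act, differed by -0.07 (SE 0.14) and 0.05 (SE 0.11), and their values overlapped between the groups.

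Other zinc finger families were counted at the same unadjusted p of at most 0.05, reached by 6.21% of all genes as higher and 2.74% as lower. Of 37 Zbtb genes, 4 were higher (10.8%) and 1 was lower (2.70%), with a median of -0.04. Of 10 Zkscan and 10 Zscan genes tested, 1 each was higher and 0 were lower, with medians of 0.00 and -0.05, and 0 genes of the 3 families passed the adjusted test in limma. Zbtb7a, a repressor of the POZ zinc finger type, was at 0.0979, 0.350 and 0.781 FPKM in the controls and 3.01, 5.54 and 1.70 FPKM in RSD, a difference of 2.89 (SE 0.67, limma adjusted p = 0.509). Zbtb40 differed by 0.48, Zkscan5 by 0.78 and Zscan25 by 0.996.

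Marker genes of cell types were examined too, and 0 of those tested passed the adjusted test in limma. They were counted at the unadjusted p of at most 0.05, reached by 6.21% of all genes as higher and 2.74% as lower. The summed level of 5 oligodendrocyte markers was between 131 and 210 FPKM in the controls and between 230 and 277 FPKM in RSD. Of the 5, 3 (60%; Mbp, Mobp and Cnp) were higher at that p, and 1 had a difference below 0. The sum of 4 endothelial markers was between 19.5 and 36.4 FPKM in the controls and between 17.0 and 19.9 FPKM in RSD, with overlap. Of the 4, 1 (25%, Flt1) was lower at that p. The sum of 6 interneuron markers was between 103 and 163 FPKM in the controls and between 122 and 186 FPKM in RSD, with overlap. Of the 6, 1 (16.7%, Slc32a1) was higher at that p, although its values overlapped between the groups. The sum of 6 excitatory neuron markers was 540, 111 and 130 FPKM in the controls and between 467 and 647 FPKM in RSD, and Slc17a7 was listed near 0 in controls 2 and 3. The sums of 5 astrocyte and 5 microglia markers overlapped between the groups. Of 4 choroid plexus markers, 2 were in the table and neither passed the filter. The sum of the 3 striatal markers tested was between 18.2 and 39.03 FPKM in the controls and between 30.5 and 34.6 FPKM in RSD, and the 1 olfactory bulb marker in the table reached at most 0.672 FPKM. The part of any such marker difference in the Zfp values was not tested.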

How the data were processed

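The study sequenced the PFC of 3 RSD and 3 control mice, and the labels put each sample in its group. The authors mapped reads (the submitters' notes name Bowtie 0.12.2 and mm9) and deposited FPKM per mRNA and lncRNA transcript from the Cufflinks suite. The deposited positions overlapped the GRCm38 RefSeq gene of the same symbol for 280 of 280 members, so GRCm38 is named. The authors' own fold change, p-value and regulation columns in these tables were not used. Because counts were not used here, no depth is known beyond a relative value from low FPKM.

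FPKM was summed by symbol and tested as log2(FPKM + 0.1) with limma 3.58.1 (trend; R 4.3.3) over the genes or transcripts that reached 0.5 FPKM in 3 or more mice, adjusted by Benjamini-Hochberg over all of them. Fold changes are on the log2(FPKM + 0.1) scale, which understates the change of low genes. SE is limma's moderated standard error. The method was tested on simulated data. Mice are separate animals, but 3 a group is few. Named were members past the adjusted test, the first 5 or more by p in each direction, the 5 most abundant, those with a described role, the smallest p of each cluster, the leading transcripts and the first 2 genes of each list. Members, lists and tests were chosen with earlier results of these data known. Alternatives were other pseudocounts, filters, scalings, no trend, a replicate block, whole-locus sums, other cluster gaps and leaving out each mouse. Promoters came from RefSeq (GRCm38.p6), and 49 members had none in the table used.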

Additional observations from a re-analysis of the deposited data

How the results depend on the processing

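With 3 mice a group, single libraries set much of what was called. Leaving out each mouse in turn gave 0 to 1 members at an adjusted p under 0.05 in limma, 1 to 10 members higher and 2 to 4 lower at the study threshold, and a member median of -0.0114 to 0.0271 on the log2 scale. Among the other settings, a pseudocount of 1 FPKM gave 2 higher members, and whole-locus sums gave 1 lower member and turned Zfp811 to -0.149. The member median of -0.00276 was -0.0753 after median scaling and -0.107 after quantile normalization. A filter of 1 FPKM, under which fewer transcripts were tested, gave 8 at the study threshold in place of 16. Transcripts at an adjusted p under 0.05 numbered 2 with no trend (Zfp180 and Zfp275), and 0 to 2 when a mouse was left out. The cause of these moves was not tested. Clusters numbered 23 with a gap of 0.5 Mb and 25 with 2 Mb.

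Deviations of same-numbered mice from their group means correlated at 0.129, -0.0945 and 0.0962 over all genes. Over the members they correlated at 0.295, -0.0181 and 0.0618. Differently numbered mice correlated between -0.204 and 0.133 over all genes and between -0.209 and 0.147 over the members. Deviations from a mean of 3 mice are tied to each other, so these values cannot decide whether the numbers pair the mice. With the replicate number as a block, 14 members had an unadjusted p of at most 0.05 in place of 19, 0 members and 0 transcripts passed the adjusted test, and the Zfp180 transcript had a limma adjusted p of 0.238.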

Other observations

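Of the 33 numbered Zfp symbols below the level rule, Zfp800 and Zfp57 are described here after their values were seen. Zfp800 was at 0.302, 0.493 and 0.648 FPKM in the controls and 5.54, 4.75 and 0.584 FPKM in RSD, so that RSD 3 lay inside the control range (difference 2.24, limma adjusted p = 0.553). Zfp57, which protects imprinted DNA methylation, was at 0.943, 0.995 and 0.759 FPKM in the controls and 2.09, 2.91 and 0.788 FPKM in RSD, with RSD 3 again inside the control range (difference 0.86, limma adjusted p = 0.612). Zfp78 was listed at 0 in all 3 controls and at 0.883, 0.355 and 1.07 FPKM in RSD, and was not tested.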
